A study of Homo sapiens with 2 samples.

Results

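Peaks of DNA recovered with an antibody against AIM2 are described here at 7 protein-coding genes on chromosome arms, in 20 Gy X-ray irradiated HaCaT cells (1 library) and in HaCaT cells that were not irradiated (0 Gy, 1 library). HaCaT is an immortalised human keratinocyte line. The dose rate was 1.15 Gy per minute, and the title of the irradiated sample also carries 4 h, with no event named from which it counts. The genes were LMF1, DOCK1, PRKCA, ART1, AP2A2, RANBP2 and SH3RF3, 7 of 20033 protein-coding genes in the RefSeq gene table. They were chosen by their called peaks, which recurred in both libraries. Presence in both, overlap, peak height and peak length are therefore given as a description and not tested. A peak was counted for a gene when its summit, the base of highest coverage, lay within 1 kb of the gene's annotated extent. This gave 9 of the 1525 peaks at 20 Gy and 7 of the 1936 peaks at 0 Gy, at 6 separate loci, since RANBP2 and SH3RF3 were assigned the same peak.

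AIM2 is a sensor of double-stranded DNA that binds the DNA backbone with little regard to base sequence and assembles the inflammasome through the adaptor ASC and caspase-1. In chromatin immunoprecipitation, a peak marks a place where recovered fragments pile up above the surrounding sequence. Neither an input library nor one made with another antibody was used here, so the peaks are described as recovered DNA and not as bound sites. The 7 genes encode proteins of varied roles, and whether any share a pathway was not analysed here. DOCK1 activates the small GTPase Rac in cell migration and engulfment, PRKCA encodes protein kinase C alpha, a calcium- and lipid-activated kinase, and SH3RF3 encodes an SH3-domain protein with a RING finger. AP2A2 encodes an alpha subunit of the AP-2 adaptor of clathrin-coated pits and RANBP2 a large protein of the cytoplasmic filaments of the nuclear pore. LMF1 is a membrane protein of the endoplasmic reticulum needed to mature lipoprotein lipase, and ART1 is an arginine-specific ADP-ribosyltransferase anchored at the cell surface.

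The 20 Gy library held 6423989 kept fragments and the 0 Gy library 8786091, a depth ratio of 0.731. Heights are therefore given as pileup, the number of fragments that cover the summit, and as fragments per 1000000 kept fragments (FPM). Intervals in brackets are exact at 95% and cover counting error only. With 1 library per group, irradiation and library preparation cannot be told apart, and no difference between the groups could be tested. The keratinocyte identity of the cells could not be checked from peak lists.

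All 7 genes had overlapping peaks in both libraries, as the choice required. Across the gene table the background was 0.240% with a called summit at 20 Gy (48 of 20033), 0.220% at 0 Gy (44), 0.0749% in both (15) and 0.0699% with an overlapping pair (14). The 7 genes described here make up 7 of these 14. Of the peaks, 8 of 9 at 20 Gy overlapped a 0 Gy peak (88.9%, 51.8 to 99.7) and 7 of 7 at 0 Gy overlapped a 20 Gy peak (100%, 59.0 to 100). The same share over all nuclear peaks was 69.2% at 20 Gy and 54.3% at 0 Gy, and over peaks at any protein-coding gene it was 30.9% of 55 and 37.2% of 43. All of these sets include the peaks of the 7 genes. Among peaks at protein-coding genes, they were 8 of the 17 that overlapped at 20 Gy and 7 of the 16 at 0 Gy.

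**Figure D1:**
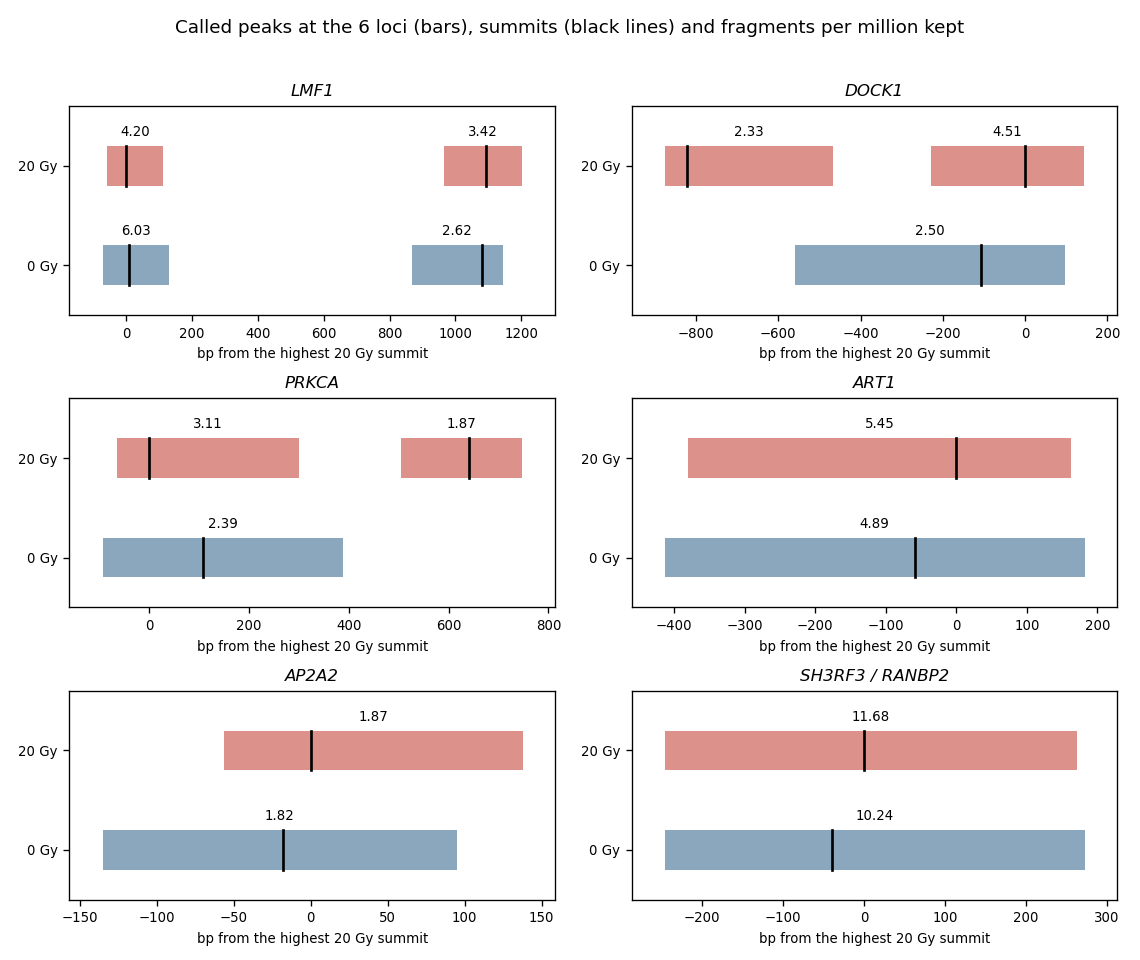
Called peaks at the 6 loci, with position in bp from the highest 20 Gy summit on the x axis and the 20 Gy library above the 0 Gy library. Bars span the called peaks, black lines mark summits and the numbers give fragments per 1000000 kept fragments; DOCK1 and PRKCA have 2 bars at 20 Gy and 1 at 0 Gy.

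DOCK1 carried 2 peaks at 20 Gy and 1 at 0 Gy. At 20 Gy, peak A spanned chromosome 10, 126947380 to 126947787, with a pileup of 15 (8.40 to 24.7) or 2.33 FPM. Peak B at 20 Gy spanned 126948027 to 126948398, with a pileup of 29 (19.4 to 41.6) or 4.51 FPM. The 0 Gy peak spanned 126947695 to 126948351, with a pileup of 22 (13.8 to 33.3) or 2.50 FPM. It reached across the 239 bp gap between the 20 Gy peaks, overlapping peak B by 325 bp and peak A by 93 bp. Its summit lay 107 bp from that of peak B, whereas the summit of peak A lay 262 bp outside it. Scaled to the depth of the 0 Gy library, the pileup of peak A would be 20.5 (11.5 to 33.8). With the local background of the 0 Gy peak, a pileup of 10 would reach the lowest −log10 p-value called there (4.91). It would also have to hold over the 177 bp minimum length of a peak. The height at that summit in the 0 Gy library is not in a peak list, and no difference was tested. Peak B over the 0 Gy peak gave a depth-scaled ratio of 1.80 (1.00 to 3.29), the highest among the 7 pairs of overlapping peaks, with its lower bound at equality. Scaled by total fragments the ratio was 1.79 (0.992 to 3.27), and by the median nuclear pair 1.70 (0.944 to 3.11), intervals that include equality. All 3 summits were 42.0 to 42.8 kb inside the gene, 7.68 to 7.83% along an extent of 547 kb from 126905428 to 127452516.

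PRKCA likewise carried 2 peaks at 20 Gy and 1 at 0 Gy. At 20 Gy, peak A spanned chromosome 17, 66798611 to 66798975, with a pileup of 20 (12.2 to 30.9) or 3.11 FPM. The 0 Gy peak spanned 66798582 to 66799062 and held all of peak A, with a pileup of 21 (13.0 to 32.1) or 2.39 FPM. The depth-scaled ratio of this pair was 1.30 (0.670 to 2.53), an interval that includes equality. Peak B at 20 Gy, at 66799179 to 66799421, had a pileup of 12 (6.20 to 21.0) or 1.87 FPM and a −log10 q-value of 3.82. It began 116 bp after the end of the 0 Gy peak and was the member peak with no counterpart called in the other library. Scaled to the depth of the 0 Gy library, its pileup would be 16.4 (8.48 to 28.7). With the local background of the PRKCA locus in that library, a pileup of 9 would reach the lowest −log10 p-value called there (4.91), if it also held over the 177 bp minimum length. A lower pileup in the 0 Gy library is not seen in a peak list, so the 2 counts of peaks do not show that peak B was absent. The summits lay 97.6 to 97.8% along the 508 kb extent (66302613 to 66810743), near the 3′ end, 496 to 497 kb from the annotated start.

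The highest peak was the one shared by SH3RF3 and RANBP2. It spanned chromosome 2, 109199330 to 109199838, at 20 Gy, with a pileup of 75 (59.0 to 94.0) or 11.7 FPM. At 0 Gy it spanned 109199330 to 109199848, with a pileup of 90 (72.4 to 111) or 10.2 FPM. The first base of the peak was the same in both libraries, the last differed by 10 bp and the summits by 40 bp. The depth-scaled ratio was 1.14 (0.828 to 1.57), an interval that includes equality. By pileup it ranked 3 of 55 peaks at protein-coding genes at 20 Gy and 2 of 43 at 0 Gy, but 105 of 1518 and 121 of 1929 among all nuclear peaks.

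The 2 genes stand differently to this peak. SH3RF3 extends over 375 kb from 109129205 to 109504634, and the summits lay 70.4 kb from its start at 20 Gy and 70.3 kb at 0 Gy. RANBP2 extends over 1123 kb in the same table, from 108719482 to 109842301, and that extent wholly contains 5 other protein-coding genes: CCDC138, EDAR, SH3RF3, SEPTIN10 and SOWAHC. The summits lay 480 kb from the RANBP2 start, beyond the far ends of CCDC138 and EDAR. The 7 listed RGPD genes, which are RANBP2-like copies, have extents of 65.3 to 234 kb in the table. The assignment to RANBP2 therefore rests on its annotated extent, and whether a RANBP2 exon lies near the peak was not analysed here.

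AP2A2 had the lowest pair. Its peak spanned chromosome 11, 965010 to 965203, at 20 Gy, with a pileup of 12 (6.20 to 21.0) or 1.87 FPM, and 964931 to 965160 at 0 Gy, with a pileup of 16 (9.15 to 26.0) or 1.82 FPM. The depth-scaled ratio was 1.03 (0.443 to 2.31), and summits lay 18 bp apart. Both lay 39.2 kb from the annotated start, 45.4% along the 86.4 kb extent (925870 to 1012240). The lowest nuclear peaks called anywhere had pileups of 5 at 20 Gy (0.778 FPM) and 6 at 0 Gy (0.683 FPM), so even this pair stood above the lowest called height. Median nuclear pileups were 13 at 20 Gy and 15 at 0 Gy, so AP2A2 lay just below the median at 20 Gy and just above it at 0 Gy.

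LMF1 was the gene with 2 peaks in each library, and its peaks A and B were matched one to one. Peak A spanned chromosome 16, 952781 to 952951, at 20 Gy and 952768 to 952969 at 0 Gy. Its pileup was 27 (17.8 to 39.3) or 4.20 FPM at 20 Gy and 53 (39.7 to 69.3) or 6.03 FPM at 0 Gy. Peak B spanned 953806 to 954040 at 20 Gy and 953708 to 953982 at 0 Gy. Its pileup was 22 (13.8 to 33.3) or 3.42 FPM at 20 Gy and 23 (14.6 to 34.5) or 2.62 FPM at 0 Gy. Peak A was thus the one matched peak with a lower depth-scaled height at 20 Gy, with a ratio of 0.697 (0.421 to 1.13), while peak B had a ratio of 1.31 (0.695 to 2.46). Both intervals include equality.

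Since peaks A and B of LMF1 come from the same libraries, their ratio needs no scaling for depth. Peak A was 1.23 times as high as peak B at 20 Gy (0.673 to 2.26) and 2.30 times at 0 Gy (1.39 to 3.94). The first of these ratios over the second, estimated as a conditional odds ratio, was 0.535 (0.237 to 1.20). A change in the balance of the peaks was thus not detectable at this depth. Summits of the pairs lay 8 and 11 bp apart, the closest of the 7 pairs, while the distance from A to B was 1092 bp between summits at 20 Gy and 1073 bp at 0 Gy. Peak A at 20 Gy was 171 bp long, under the 177 bp that a peak needed to be called at 0 Gy. The last 6 bp of peak B at 20 Gy fell in the lncRNA gene LOC105379537 (954035 to 954649), which the 0 Gy peak did not reach. LMF1 is read from the minus strand, and the summits lay 17.1 to 18.1 kb downstream of its nearest annotated start, in an extent of 128 kb (853634 to 981613).

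ART1 had the second highest pair at 20 Gy. The peak spanned chromosome 11, 3654195 to 3654737, at 20 Gy, with a pileup of 35 (24.4 to 48.7) or 5.45 FPM. At 0 Gy it spanned 3654162 to 3654756 and held all of the 20 Gy peak, with a pileup of 43 (31.1 to 57.9) or 4.89 FPM. The depth-scaled ratio was 1.11 (0.692 to 1.78). ART1 is the shortest of the 7 genes, at 19.3 kb (3645128 to 3664416), and the peak covered 2.82% of it at 20 Gy and 3.08% at 0 Gy. In the other genes peaks covered 0.0453 to 0.317% of the extent at 20 Gy and 0.0462 to 0.373% at 0 Gy.

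**Figure D2:**
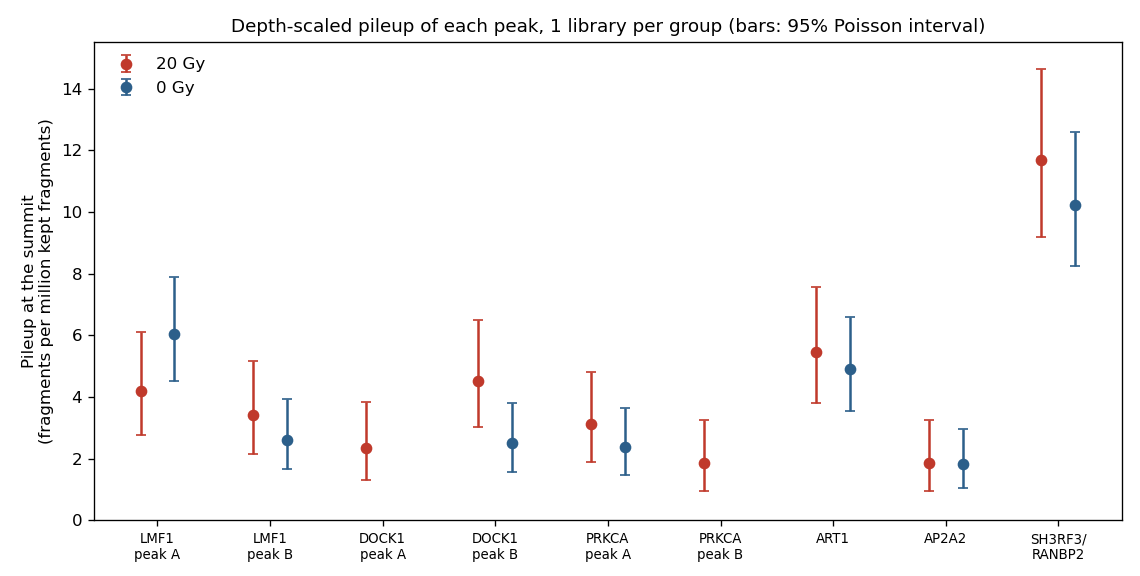
Pileup at the summit of each peak in fragments per 1000000 kept fragments (y axis), with 20 Gy left of 0 Gy and bars for the exact 95% Poisson interval; 1 library per group. Intervals of the libraries overlap at every matched peak, and DOCK1 peak A and PRKCA peak B have no matched 0 Gy value.

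In order of height at 20 Gy, the matched peaks were SH3RF3 with RANBP2, ART1, DOCK1 peak B, LMF1 peak A, LMF1 peak B, PRKCA peak A and AP2A2. Apart from the step from SH3RF3 to ART1, the Poisson intervals of each peak and the next overlapped. At 0 Gy, LMF1 peak A stood above ART1, and DOCK1 stood below LMF1 peak B. Over the 7 pairs the depth-scaled ratio was above 1 in 6, with a median of 1.14, where 59.1% of all 1046 nuclear pairs were above 1 with a median of 1.06 and a middle 95% of 0.608 to 1.84. All 7 ratios lay within that range. DOCK1 stood above 97.0% of the nuclear pairs, and LMF1 peak A stood above 7.17% of them. The summed pileup of the 7 pairs was 220 at 20 Gy and 268 at 0 Gy, a depth-scaled ratio of 1.12 (0.935 to 1.35).

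**Figure D3:**
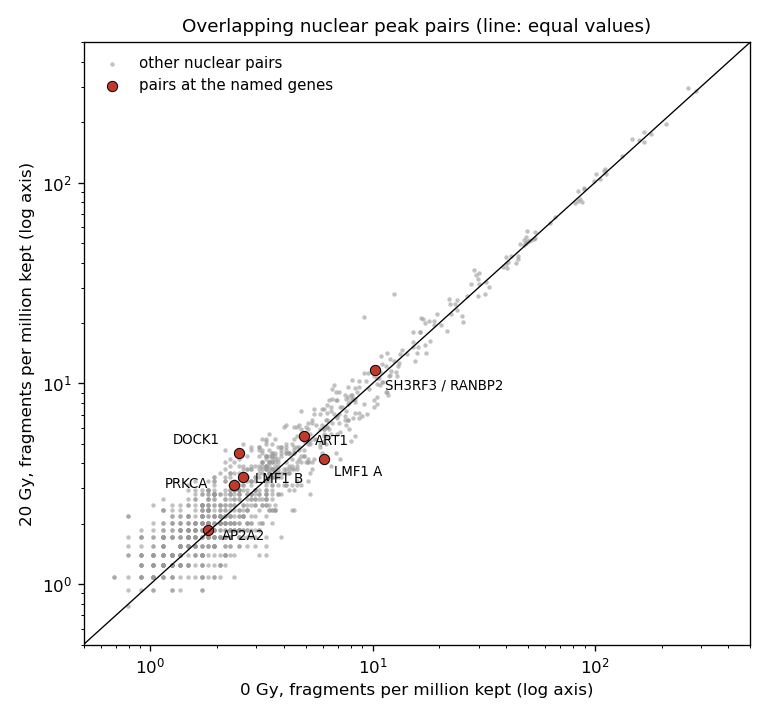
Fragments per 1000000 kept fragments at 20 Gy (y axis) and 0 Gy (x axis), both log axes, for all 1046 overlapping nuclear pairs (grey) and the 7 pairs at the named genes (red). The line marks equal values; the 6 red points above it and LMF1 peak A below it all lie within the cloud of grey points.

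The authors' fold enrichment, which divides pileup plus 1 by a local background plus 1, ordered the libraries differently at 3 loci. Its 20 Gy over 0 Gy ratio was 0.915 at PRKCA peak A, 0.810 at AP2A2 and 0.991 at SH3RF3, where the depth-scaled pileup ratios were above 1. It stayed above 1 at DOCK1 (1.32), LMF1 peak B (1.28) and ART1 (1.05), and below 1 at LMF1 peak A (0.714). Over all nuclear pairs the median of this ratio was 0.954, also below 1. The added 1 was not scaled for depth, so the ratio is not the depth-scaled pileup ratio divided by the background ratio. The local background that enters fold enrichment can be worked back from the deposited values. Per kept fragment, the 20 Gy over 0 Gy ratio of that background was 1.47 at PRKCA peak A, 1.34 at DOCK1, 1.23 at AP2A2 and 1.10 at SH3RF3, against 0.946 at ART1, 0.900 at LMF1 peak B and 0.859 at LMF1 peak A. Its median over all nuclear pairs was 0.995. That background was taken over 10000 bp that include the peak itself.

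This local background was above the genome-wide level at each of the 6 loci. It was 2.76 to 8.24 times the lowest value of the library at 20 Gy (median 4.18 over 9 peaks) and 2.16 to 7.21 times at 0 Gy (median 4.17 over 7 peaks). Over all nuclear peaks the medians were 2.28 and 2.13. AP2A2 had the lowest value and SH3RF3 the highest in each library. Peaks at the 7 genes were also longer, with median lengths of 365 bp at 20 Gy and 481 bp at 0 Gy, where all nuclear peaks had medians of 228 and 238 bp. The genes were chosen for recurrent peaks, while 69.2% of all nuclear peaks at 20 Gy and 54.3% at 0 Gy overlapped the other library. Neither comparison is therefore of like peaks, and neither was tested.

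The peaks varied in how far they stood from other called peaks. The nearest called summit outside the same gene was 0.380 Mb away from AP2A2, 1.04 Mb from DOCK1, 2.69 Mb from ART1, 15.0 Mb from SH3RF3, 23.6 Mb from PRKCA peak A and 32.4 Mb from LMF1 peak A at 20 Gy. At 0 Gy the same distances were 0.831, 1.04, 2.69, 15.0, 23.5 and 29.3 Mb. Over all nuclear peaks 94.9% at 20 Gy and 96.3% at 0 Gy had another summit within 1 Mb, counting peaks in the same gene. Counted in that way, 7 of the 9 peaks at 20 Gy and 3 of the 7 at 0 Gy had one, mostly the other peak of LMF1, DOCK1 or PRKCA. The nearest peak outside the window at 20 Gy was far from it, 0.380 Mb from the AP2A2 summit, with a pileup of 10 (1.56 FPM). No member summit was near the window's limit, since each lay at least 9.39 kb inside its gene's extent.

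**Figure D4:**
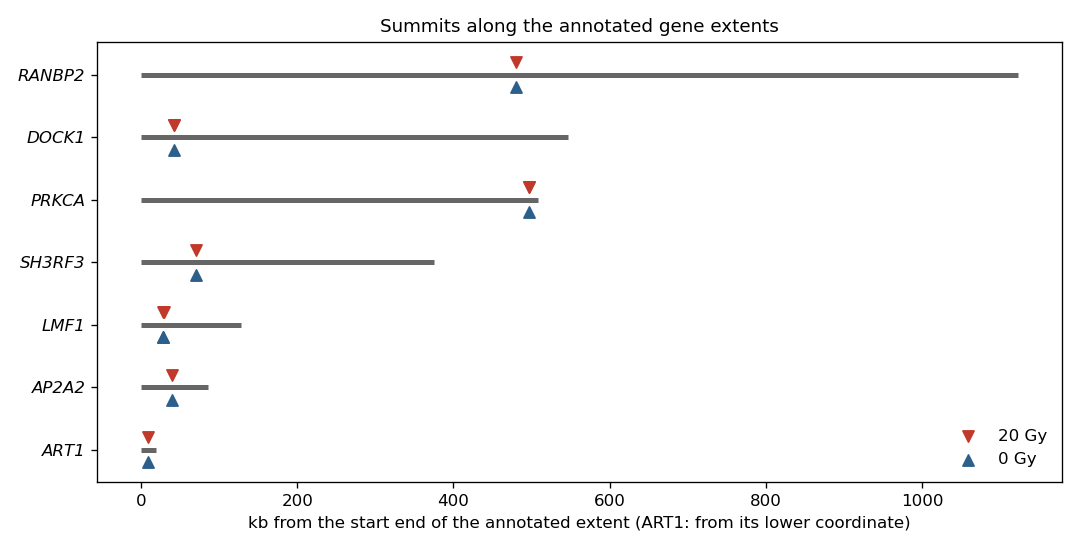
Summits at 20 Gy (triangles above the line) and 0 Gy (below) along each gene's annotated extent, in kb from the end where the gene starts (for ART1, whose strand was not in the table, from its lower coordinate). Triangles of the libraries coincide at this scale in all 7 genes, and the PRKCA summits lie near the far end.

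The summits lay at varied distances from transcription starts, and the RefSeq promoter table that gives these starts held no entry for ART1 itself, for LOC105379537 beside LMF1 or for MIR634 inside PRKCA. Among the starts it holds, the nearest was 12.1 kb from the ART1 summits (the start of ART5), 17.1 kb from those of LMF1 and 445 kb from those of PRKCA. These values would be smaller with the missing genes. Starts of other genes may be missing too, so distances to a start are upper limits and shares near a start lower limits. The summits of LMF1 peak B lay 104 bp at 20 Gy and 115 bp at 0 Gy from the near end of LOC105379537, and 718 and 729 bp from its far end, so its start is within 1 kb whichever its strand. The ART1 summits lay 9.39 to 9.90 kb from the ends of ART1, and those of PRKCA 11.5 to 12.1 kb from the near end of MIR634. Across all nuclear peaks, 0.329% of summits at 20 Gy (5 of 1518) and 0.518% at 0 Gy (10 of 1929) lay within 1 kb of a start in that table. Exons, introns and the base sequence under the peaks were not analysed here. Most of the genes have long annotated extents, where protein-coding genes have a median of 24.1 kb. DOCK1, PRKCA and SH3RF3 are longer than 97.3 to 98.7% of them, LMF1 than 87.5%, AP2A2 than 80.6% and ART1 than 44.1%. RANBP2 is longer than 99.7% by an annotated extent that wholly contains 5 other protein-coding genes, so its rank rests on that annotation.

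Relatives of the 7 genes had no called peaks. None of 30 listed genes, among them LMF2, the DOCK family members DOCK2 to DOCK5, 5 other protein kinase C genes, ART3 to ART5, the other AP-2 subunits, 7 RGPD genes and 4 nuclear pore genes, had a summit within 1 kb in either library. Taking 3 counts as the limit that a count of 0 allows, 0 of 30 allows a share of up to 10.0%, which does not separate the list from the 0.240% and 0.220% of all protein-coding genes. Of the 7 other protein-coding genes with an overlapping pair, the 3 nearest to the members' median in log2 FPM over the libraries were LOC101929601, DUX4, a homeobox gene of a repeat array, and RPSA2. Their highest pairs had pileups of 24 at 20 Gy and 25 at 0 Gy in LOC101929601, 58 and 62 in DUX4, and 11 and 10 in RPSA2. Their distances from that median were 0.83, 1.13 and 2.53 log2 units, and the likeness covers 2 libraries only.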

How the data were processed

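Reads were aligned to GRCh38.p13 and peaks called with MACS2 2.1.2, per the submitters' processing notes and the file headers. Per the file headers, each library was called alone, in paired-end mode, with a q-value limit of 0.05, at most 1 fragment per position, no control library and a local background over 10000 bp. The deposited pileup is coverage signal by fragments at the summit, unscaled between libraries. The deposited −log10 p- and q-values and the fold enrichment ratio are against the same library's background, per the file headers. The aligner's settings are not given in the sources used here.

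Pileups were divided by the kept fragments of the file header. Peaks overlapping by at least 1 bp were paired when each was the other's largest overlap. Local background was computed as (pileup + 1)/fold enrichment − 1, and a Poisson tail at this value matched the deposited −log10 p-values to within 0.00022 for the 1496 and 1903 nuclear peaks checked at 20 Gy and 0 Gy. Intervals were exact Poisson, Clopper-Pearson or conditional binomial, all covering counting error only; amplified fragments are not independent molecules. Gene extents and transcription starts came from RefSeq tables of GRCh38.p14. The members, the relatives list and the settings were chosen with earlier results of these data known. The text names the members, genes holding their summits, relatives with a peak and the 3 genes of nearest height; CCDC138, EDAR, SEPTIN10, SOWAHC, LOC105379537, MIR634, ART5 and the relatives named were added after values were seen. Scripts ran in Python 3.11.15 with SciPy 1.17.1, and overlap and interval steps were tested on simulated data.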

Additional observations from a re-analysis of the deposited data

How the results depend on the processing

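Counts of 9 peaks at 20 Gy and 7 at 0 Gy were the same with a window of 0 bp, 1 kb or 5 kb, and with −log10 q-values limited to 3 or more. The windows could not change them, since each summit lay at least 9.39 kb inside its gene and the nearest peak outside was 0.380 Mb from a member summit. The lowest −log10 q-value was 3.82, so the limit of 3 could not either. With a limit of 5, PRKCA peak B dropped out, leaving 8 peaks at 20 Gy, of which 100% overlapped a 0 Gy peak, by construction of fewer peaks. Equal minimum lengths of 177 bp removed LMF1 peak A at 20 Gy and left 87.5% of the 20 Gy and 85.7% of the 0 Gy peaks overlapping. Reciprocal overlap of at least 50% kept 6 of the 7 genes, losing DOCK1, with 66.7% of the 20 Gy and 85.7% of the 0 Gy peaks overlapping. Summits within 100 bp kept 5 genes, with shares of 55.6% at 20 Gy and 71.4% at 0 Gy. The summed depth-scaled ratio of 1.12 ranged from 1.06 when scaled by the median nuclear pair to 1.11 with total fragments. The ratio of summed fold enrichment, another measure that was not scaled by kept fragments, was 0.979. AP2A2 was at 0.968 when scaled by the median nuclear pair. Of 63 recomputed values, 62 kept to the interval of the main value or, for counts, to 1.5 times of it. Values that could not change are among these, and the interval of the 20 Gy share was wide (51.8 to 99.7%). No paired analysis was possible because there is 1 library at 20 Gy and 1 at 0 Gy. Depth limits what can be seen: at pileups of 12 and 16 the interval of the AP2A2 ratio ran from 0.443 to 2.31.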

Other observations

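The peak shared by SH3RF3 and RANBP2 began at the same base in both libraries. Among the 1046 nuclear pairs, 72 shared the first base and 64 the last, so that 131 (12.5%) shared at least 1 of these, and 5 shared both. None of the other 6 pairs at the 7 genes shared an end. At PRKCA peak A the summit lay 64 bp from the lower end of the 365 bp peak at 20 Gy and 201 bp from the lower end of the 481 bp peak at 0 Gy, and at DOCK1 peak A it lay 53 bp from the lower end of a 408 bp peak.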
